A study of Rattus norvegicus with 27 samples.

Results

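The comparison described here sets 4 HS_SCR rats against 4 rats of the 0.4% salt group, 8 of the 27 rats of the study. All are MCW SS rats, the MCW colony of the Dahl salt-sensitive strain, and the tissue is the renal outer medulla. HS_SCR rats received a scrambled GapmeR in the kidney at 4 mg/kg and ate a 4% NaCl diet for 7 days. The 0.4% salt rats had the same surgery and a diet of 0.4% NaCl, and their tissue was taken just before GapmeR treatment and the high-salt diet would have begun. Diet, time after surgery and GapmeR treatment therefore differ between the groups together and cannot be told apart. A further 4 rats, HS_DT, were given GapmeRs against Dnmt3a and Tet3 at 2 mg/kg each and the 4% NaCl diet, and their levels are given beside the comparison. The labels give no age or sex for these 3 groups. Per the labels every library comes from its own rat, and the SDs below therefore hold animal as well as technical variation.

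Methylation of cytosine in CpG dinucleotides is set up by de novo methyltransferases such as Dnmt3a and is removed stepwise after oxidation by TET enzymes such as Tet3. CpG-rich gene starts are usually unmethylated in all tissues, whereas most CpGs away from them are methylated, and on the inactive X chromosome of females many gene starts carry methylation as well. The outer medulla holds the thick ascending limb, which reabsorbs sodium chloride, and is a site of salt-induced injury in the SS rat. A GapmeR is an antisense oligonucleotide that directs cleavage of its target RNA, and a scrambled one has no intended target.

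Methylation was read by reduced representation bisulfite sequencing, in which CpG-rich restriction fragments are treated with bisulfite, which turns unmethylated cytosine into a base read as T and leaves methylated cytosine to be read as C. The level of a site is C as a percent of C and T reads. Sites with at least 10 reads in all 12 libraries of the table, called common sites, numbered 1219703 of 5477824 positions. Gene starts were found by laying RefSeq promoter windows, from 250 bases before to 50 bases after a start, onto the measured positions by the spacing of their CpGs (8696 windows of 7935 genes). The windows below are shown because results below turn on them or because they belong to the GapmeR targets of the HS_DT rats. The 250 bases before the start are printed 5′ to 3′ from RefSeq, build GRCr8, and the CpGs that were measured as common sites are in capitals. The windows lie in GRCr8 at chr6:32598352-32598651 on the plus strand for Dnmt3a, chr4:117520996-117521295 on the minus strand for Tet3, chrX:35495652-35495951 on the plus strand for Txlng, chr12:37569058-37569357 on the minus strand for Dnah10 and chrX:45745017-45745316 on the minus strand for Prkx.
Dnmt3a: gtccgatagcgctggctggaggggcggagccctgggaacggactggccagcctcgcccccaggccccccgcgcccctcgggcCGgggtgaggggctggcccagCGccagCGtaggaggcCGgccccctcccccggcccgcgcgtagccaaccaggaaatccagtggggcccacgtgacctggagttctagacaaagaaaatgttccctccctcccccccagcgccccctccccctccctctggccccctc
Tet3: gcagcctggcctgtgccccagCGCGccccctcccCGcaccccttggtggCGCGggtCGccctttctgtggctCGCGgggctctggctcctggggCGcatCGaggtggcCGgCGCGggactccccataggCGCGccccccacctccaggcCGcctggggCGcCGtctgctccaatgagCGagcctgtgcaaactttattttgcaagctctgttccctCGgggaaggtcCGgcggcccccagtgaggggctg
Txlng: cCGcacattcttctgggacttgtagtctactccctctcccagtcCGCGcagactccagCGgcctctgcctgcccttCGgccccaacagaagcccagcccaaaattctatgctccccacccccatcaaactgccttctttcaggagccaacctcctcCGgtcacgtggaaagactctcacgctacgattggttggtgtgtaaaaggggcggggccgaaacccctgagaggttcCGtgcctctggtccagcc
Dnah10: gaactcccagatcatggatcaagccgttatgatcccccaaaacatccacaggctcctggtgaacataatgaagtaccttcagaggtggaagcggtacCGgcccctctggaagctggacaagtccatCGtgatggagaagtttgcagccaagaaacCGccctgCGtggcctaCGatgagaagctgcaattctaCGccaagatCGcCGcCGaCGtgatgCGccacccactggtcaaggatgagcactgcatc
Prkx: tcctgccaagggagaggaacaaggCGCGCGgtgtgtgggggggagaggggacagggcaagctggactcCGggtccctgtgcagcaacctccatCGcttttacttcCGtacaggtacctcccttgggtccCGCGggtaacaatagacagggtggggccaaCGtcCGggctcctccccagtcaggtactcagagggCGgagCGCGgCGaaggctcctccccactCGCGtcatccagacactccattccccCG
In Dnmt3a the 4 measured CpGs sit within a short stretch, whereas in Tet3 they cover 21 of the 22 CpGs of the 250 bases.

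The 8 libraries held between 174400859 and 257658964 C and T counts summed over CpGs, with a median of 66 to 98 reads at a common site. Correlations between libraries over 500 bp bins ran from 0.954 to 0.967, and none of the 28 pairs of libraries was identical. At 84414 common sites (6.92%) the counts equalled those of another position more than 1000 bp away in every library. C counts from 1 to 49 were even in 61.8% to 64.6% of cases and T counts of that size in 67.6% to 68.2%; whether reads were counted in pairs was not tested. Reads given for a bin, promoter window or library are counts summed over its CpGs. A read that covers several CpGs is counted at each. Counting intervals and limits below cover counting error only and take each count as independent. They are too narrow where CpGs share reads.

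Mean methylation over the common sites differed between the groups by less than the spread between rats. The HS_SCR rats had levels of 29.99%, 29.85%, 29.92% and 29.23% for replicates 1 to 4. The 0.4% salt rats had levels of 29.79%, 29.61%, 29.71% and 29.82%. Of the HS_SCR rats, 3 lay above all 0.4% salt rats, and replicate 4 lay below all of them. The group means were 29.7% ± 0.350 (SD, n = 4) and 29.7% ± 0.093 (SD, n = 4), a difference of 0.0131 percentage points (SE 0.181; exact two-sided permutation test, p = 0.971). HS_SCR was the higher of the pair in 12 of 16 pairs of rats. The sign of so small a difference was not stable: it was -0.0670 without HS_SCR replicate 1 and 0.186 without HS_SCR replicate 4. With each site weighted by its reads the difference was 1.75 points (SE 0.876; exact permutation p = 0.114).

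HS_SCR replicate 4 was the lowest of the 8 rats on 21 of 21 chromosomes. Chromosome differences between the groups ran from -0.104 points on chromosome X to 0.246 points on chromosome 14. Common sites were also split by their level in the HS_DT rats, which are outside the comparison. At sites of 70 to 90% the HS_SCR rats had 82.57%, 81.88%, 81.39% and 80.23%, and the 0.4% salt rats between 81.61% and 81.91%. The HS_SCR rats thus spread to both sides of a narrow 0.4% salt group. At sites of 10 to 30% HS_SCR replicate 3 was the highest rat, at 21.83%, and replicate 4 stood at 19.41%, between the 18.93% of 0.4% salt replicate 2 and the 20.15% to 20.58% of its other 3 rats. The differences of group means in these 2 classes were -0.301 (SE 0.498) and 0.527 points (SE 0.624). The second was 0.0937 without HS_SCR replicate 3, 0.171 without 0.4% salt replicate 2 and 0.900 without HS_SCR replicate 4. The first was 0.128 without HS_SCR replicate 4 and -0.652 without HS_SCR replicate 1. The class with the smallest p was that of bins with 20 or more common sites, at 3.18%, 3.19%, 3.06% and 2.99% in HS_SCR and 3.03%, 2.98%, 2.97% and 3.11% at 0.4% salt. None of 34 classes of sites, by CpG density, level, chromosome or distance from unmethylated CpG-dense bins, passed after Benjamini-Hochberg adjustment (smallest unadjusted exact two-sided permutation p = 0.2). The smallest p that 4 against 4 rats can give is 0.0286, so a class could not have passed the adjustment on its own.

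**Figure D1:**
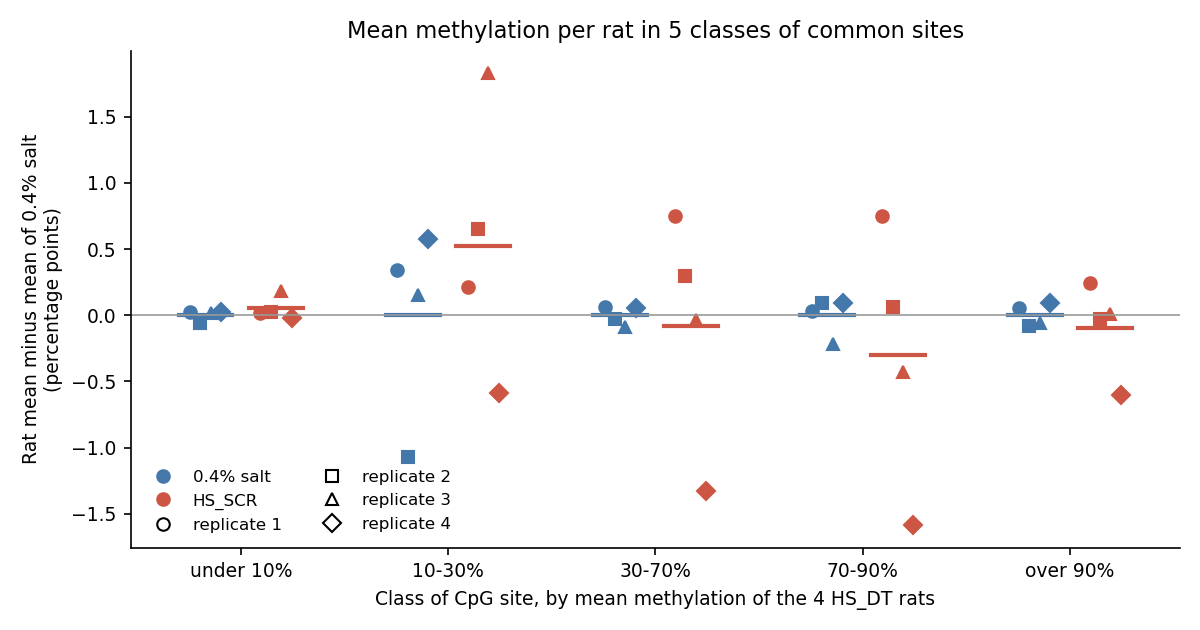
Mean methylation of each rat in 5 classes of common sites, as the difference from the mean of the 4 rats at 0.4% salt in percentage points; bars are group means and symbols mark replicates. HS_SCR replicate 4 is the lowest rat at sites above 30% and replicate 3 is the highest at sites of 10 to 30%.

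Methylation fell to its lowest levels at gene starts in all 8 rats, with no difference between the groups that passed a test. Over the 96929 common sites in the 500 bp before a placed start the mean was 1.61% in HS_SCR and 1.60% at 0.4% salt. In the 500 bp after the start, with 155311 sites, it was 1.17% and 1.16%. Between 4000 and 5000 bp after the start it reached 37.6% and 37.4%, a difference of 0.208 points (SE 0.295). None of 12 distance ranges passed the test (exact permutation tests with Benjamini-Hochberg adjustment, smallest adjusted p = 0.935, smallest unadjusted p = 0.343). With 4 against 4 rats, a range could not have passed this adjustment on its own either.

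**Figure D2:**
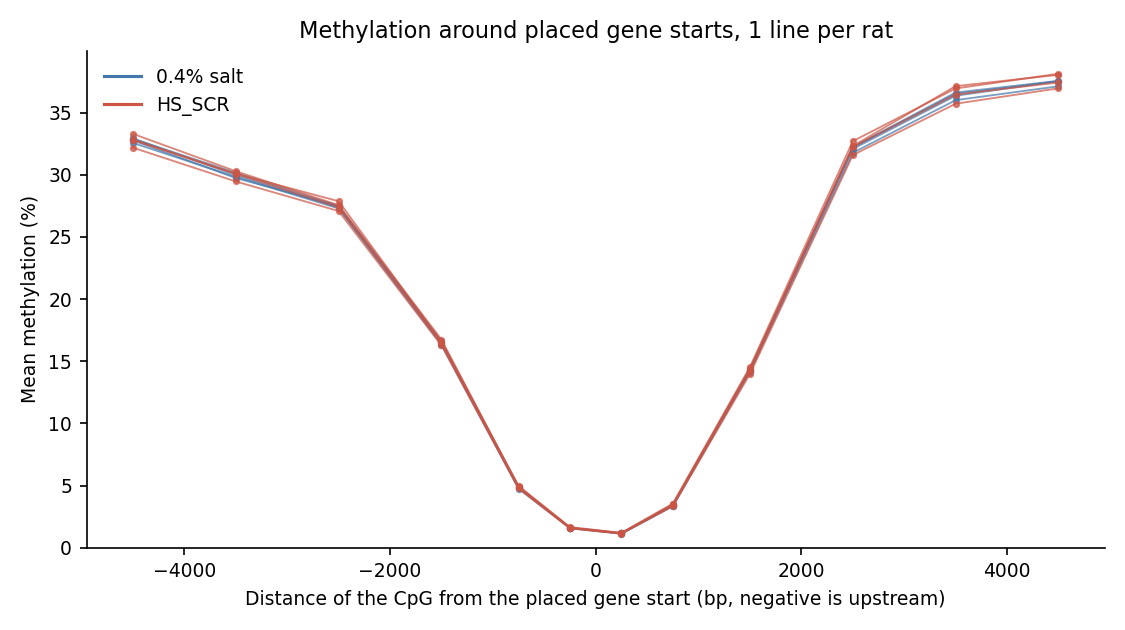
Mean methylation of common sites by distance from the placed gene start, in bp, with 1 line for each of the 8 rats. All lines fall to between 1% and 2% at the start and run together on both sides.

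Of the 7089 promoter windows with at least 3 common sites, 6666 (94.0%) had a pooled level below 5% and 422 windows of 380 genes lay between 5 and 95% and were tested. None was called (0% of 422) by a quasi-binomial test with Benjamini-Hochberg adjustment, and the smallest adjusted p was 0.570. At an unadjusted p under 0.05 there were 27 windows (6.4%), 10 higher and 17 lower in HS_SCR, and limma gave 25. The groups did not overlap in 15 windows (3.55%), 4 higher and 11 lower. Of the X windows, 132 of 135 (97.8%) had a level in the tested range, against 290 of 6954 (4.17%) on autosomes, so that 31.3% of the tested windows were on the X chromosome. The median level of X windows was 25.6% in both groups, and that of autosomal windows was 0.0668% in HS_SCR and 0.0647% at 0.4% salt. Averaged over the 132 tested X windows, HS_SCR rats stood at 27.8% ± 0.475 (SD, n = 4) and 0.4% salt rats at 27.7% ± 0.732 (SD, n = 4), an exact permutation p of 0.886. The sex of the rats is not in the labels.

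Among the 4 windows that were higher in HS_SCR without overlap, Reps2 had the smallest p. Reps2 had levels of 24.7%, 23.6%, 27.6% and 25.5% in HS_SCR and of 19.8%, 19.5%, 16.8% and 17.7% at 0.4% salt (8 CpGs; rn5 chrX:34130232-34130531). Every HS_SCR rat lay above every 0.4% salt rat, by 6.92 points between means (SE 1.12; adjusted p = 0.570). In HS_DT the same window ran from 19.03% to 28.97%. Prkx, a protein kinase of the cAMP-dependent family, had 29.8%, 28.1%, 27.3% and 27.3% in HS_SCR and 22.9%, 25.4%, 26.5% and 22.9% at 0.4% salt over 19 CpGs. Its difference was 3.65 points (SE 1.08; adjusted p = 0.733). The other two were Yipf6, a Golgi membrane protein, at 30.6% against 25.4%, and LOC120097081 at 83.9% against 82.1%. In Yipf6 the lowest 0.4% salt rat, replicate 4, had 19.6%, and without it the difference of 5.18 points was 3.22.

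Of the 11 windows that were lower without overlap, 8 are given here, those of smallest p. Txlng, which encodes gamma-taxilin, had 24.7%, 26.8%, 21.0% and 24.2% in HS_SCR and 29.4%, 33.9%, 31.2% and 34.9% at 0.4% salt (10 CpGs; rn5 chrX:33946422-33946721). The difference was -8.16 points (SE 1.75; adjusted p = 0.570), and the HS_DT rats covered the levels of both groups, from 20.3% to 33.7%. Dnah10, a heavy chain of the dynein of motile cilia, had 40.0%, 47.8%, 36.5% and 45.2% in HS_SCR and 49.2%, 63.1%, 48.8% and 54.0% at 0.4% salt (14 CpGs; rn5 chr12:39196652-39196951). The gap between the groups was narrow, 47.8% against 48.8%, and the difference of means was -11.4 points (SE 4.18; adjusted p = 0.570). RefSeq gives Dnah10 other starts as well, and this window is the one nearest the end of the gene. Tab3, an adaptor of the kinase TAK1, stood at 25.8% against 29.97%, and Xdh-ps1, whose window overlaps that of Tab3 on the other strand, at 22.7% against 26.5%. Zc3h12b, a CCCH zinc finger protein, stood at 21.3% against 30.9%, and Nalf2 at 21.9% against 30.8% with HS_SCR replicate 3 as low as 12.98%. Single rats carried part of both differences: that of Zc3h12b was -9.62 points and -5.65 without 0.4% salt replicate 4, which had 42.8%, and that of Nalf2 was -8.89 and -5.91 without HS_SCR replicate 3. The 2 windows left were LOC102548326, at 22.2% against 26.2% (-3.96 points, and -2.46 without HS_SCR replicate 3), and LOC120097741, at 86.0% against 89.5%. Of the 12 windows named in either direction, 9 lie on the X chromosome, with the overlapping windows of Tab3 and Xdh-ps1 both counted. The X chromosome holds 31.3% of the tested windows, and that difference in share was not tested.

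Of 25 genes of the DNA methylation machinery 13 were measured at their start, 12 of them below 5%, and the window of Dnmt3a was the one that was tested. Its 4 CpGs (rn5 chr6:38131731-38132030) had levels of 9.09%, 9.29%, 4.55% and 23.3% at 0.4% salt. In HS_SCR they had 2.90%, 2.08%, 5.56% and 0%. The groups overlapped, since 0.4% salt replicate 3 lay below HS_SCR replicate 3, and 0.4% salt replicate 4 lay far above the rest. The means were 11.6% ± 8.15 (SD, n = 4) and 2.63% ± 2.30 (SD, n = 4), a difference of -8.93 points (SE 4.23; adjusted p = 0.570), and without 0.4% salt replicate 4 the difference was -5.01 points. Depth was low here: summed over the 4 CpGs, 28 of 120 counts were methylated in 0.4% salt replicate 4 (95% Wilson interval 16.7% to 31.7%). In HS_SCR replicate 4 it was 0 of 90 counts, which allows a level of up to 3.33% at 3 counts. Neighbouring CpGs can share reads, so this interval and this limit may be too narrow. The HS_DT rats had 5.88%, 7.14%, 0% and 4.76%. Bins of 500 bp farther into the gene had similar levels in both groups, 25.7% at 0.4% salt against 24.5% at 769 bp from the start and 74.5% against 75.4% at 3269 bp.

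Tet3 was unmethylated at the start and intermediate upstream of it. Over the 21 CpGs printed above, the level was 0.152% in HS_SCR and 0.114% at 0.4% salt. In the bin centred 2263 bp upstream of this start (rn5 chr4:179749001-179749500, 5 CpGs) the 0.4% salt rats had 17.7%, 14.3%, 15.3% and 6.37%. The HS_SCR rats had 19.04%, 25.1%, 29.2% and 22.8%, all above the 0.4% salt rats, and the HS_DT rats had 15.97%, 25.5%, 18.2% and 17.1%. The difference of 10.6 points was not called over all bins (adjusted p = 1.00). Lrp2, which encodes megalin, the endocytic receptor of the proximal tubule, showed a similar layout with 0.686% against 0.221% at its start and, in a bin 1792 bp upstream (rn5 chr3:62436501-62437000, 7 CpGs), 7.14%, 11.6%, 10.6% and 14.4% in HS_SCR against 4.88%, 4.42%, 5.92% and 6.78%. This bin was not called either (adjusted p = 1.00). Over the gene lists used here, 1 of 10 bins within 5000 bp of DNA methylation genes and the 1 bin near proximal tubule markers did not overlap, both given above. Of 22 near imprinted genes, 1 did not overlap and was lower, at 66.8% in HS_SCR against 69.9%, 4787 bp after a start of Gnas. In the other lists none did. These bins were described after their values had been seen, and among all 5124 bins within 5000 bp of a placed start 152 (2.97%) did not overlap between the groups.

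**Figure D3:**
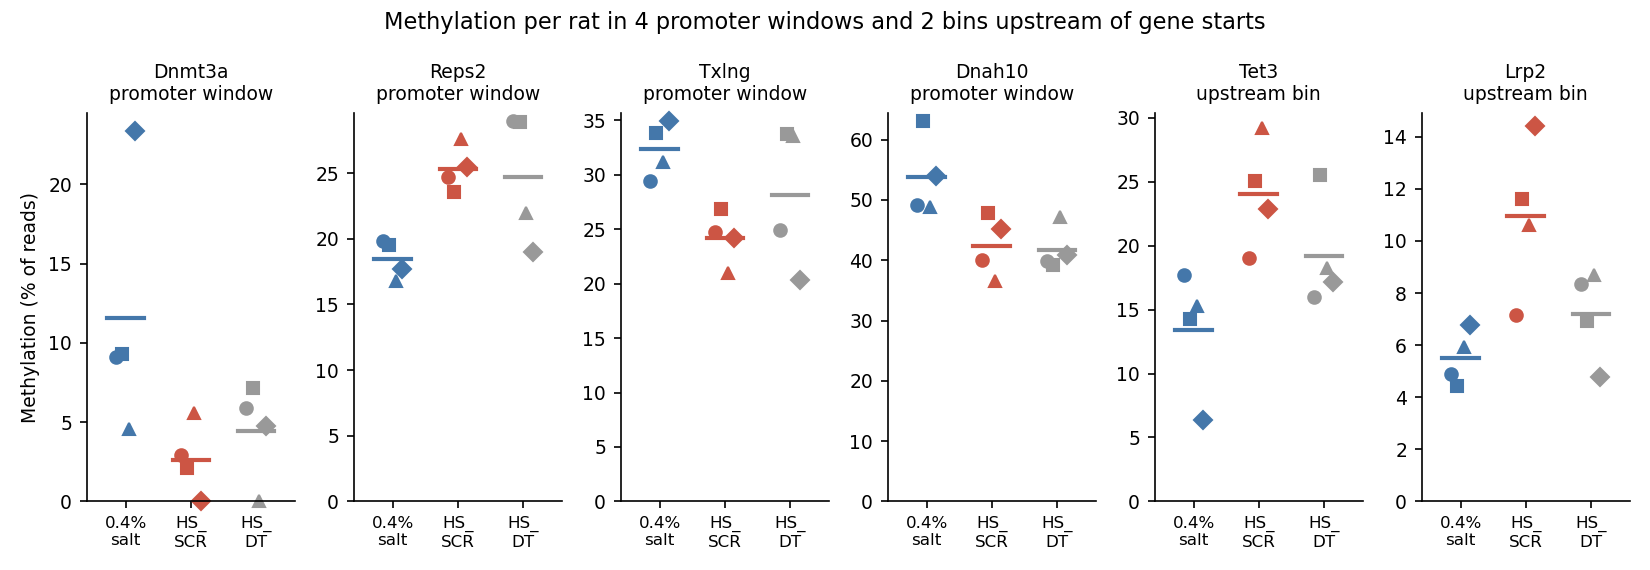
Methylation in percent of reads for each rat in the promoter windows of Dnmt3a, Reps2, Txlng and Dnah10 and in 1 bin upstream of Tet3 and of Lrp2; bars are group means and symbols mark replicates. In Dnmt3a the 0.4% salt rats reach 23.3% while the HS_SCR rats stay at or below 5.56%; in the other 5 panels the HS_SCR and 0.4% salt rats do not overlap.

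Genes of salt transport and blood pressure control had mean levels below 5% at their measured starts in both groups. This is not particular to these genes, since 94.0% of all windows with at least 3 common sites were pooled below 5%. A start was placed only with at least 10 covered CpGs, so CpG-poor starts could not be measured. Of 41 genes of sodium and water transport 12 could be measured, all with group means below 5%. The highest was Casr, the calcium-sensing receptor, at 4.51% in HS_SCR and 3.54% at 0.4% salt. Its groups overlapped, with 3.79% to 6.08% in HS_SCR, the highest in replicate 1, and 2.42% to 4.67% at 0.4% salt. The epithelial sodium channel subunit Scnn1b had 2.69% and 3.21%. Of 39 genes of blood pressure hormones and vasoactive signalling 7 were measured, with Ace, the angiotensin-converting enzyme, at 0.488% and 0.693% and the endothelin gene Edn1 at 0.277% and 0.400%. The Edn1 mean at 0.4% salt rested on replicate 1, at 1.32%. The other 0.4% salt rats had 0.0348% to 0.140%, below all HS_SCR rats, which had 0.244% to 0.334%. Of 29 redox genes 9 were measured; Nox4, an NADPH oxidase abundant in the kidney, had 2.69% and 3.43%, and the others were below 1%. Of 27 genes of injury and fibrosis 8 were measured, with Krt18, a keratin of simple epithelia, at 0.246% and 0.627%. Median differences of the 4 lists were 0.0335, -0.123, 0.0220 and -0.0260 points, where the median over all windows was 0. No window of these lists reached the level needed for the test. Of 12 genes of the osmotic and heat shock response none could be measured.

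Of 26 imprinted genes 5 were measured in 6 windows, and 3 windows were tested. The methylated window of Gnas, which encodes the stimulatory G protein alpha subunit and other transcripts of an imprinted locus, had 32.0%, 31.4%, 34.2% and 21.2% in HS_SCR and 27.6%, 32.4%, 29.4% and 29.8% at 0.4% salt. The means were 29.7% and 29.8%, and its other measured window was at 0.0664% and 0.0291%. Ndn, which encodes necdin, had 16.5% and 15.5%, and Igf2 had 5.60% and 5.30%. Cell type markers were hardly covered: none of the 5 markers of the thick ascending limb, the defining cell of this tissue, was placed, so the tissue label was not tested by promoter level. Of the 15 leukocyte markers, Coro1a was measured, at 0.339% against 0.487%, and Plvap, a marker of fenestrated endothelium, had 16.4% against 15.6%.

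Across the genome, including gene starts, positions were cut into bins of 500 bp, and the 96299 bins that held 3 or more common sites and a pooled level of 5 to 95% were tested on their summed counts. None was called between the groups (0% of 96299; quasi-binomial test with Benjamini-Hochberg adjustment), and the smallest adjusted p was 0.772. An unadjusted p under 0.05 was met by 4595 bins (4.77%), 2191 higher (2.28%) and 2404 lower (2.5%) in HS_SCR, with 4590 by limma and 4413 by edgeR, neither of which called a bin after adjustment. The groups did not overlap in 2539 bins (2.64%), 1125 higher (1.17%) and 1414 lower (1.47%). Differences of more than 10 points were seen in 442 bins upward and 400 downward, and 100 and 108 of these did not overlap. The 38 bins named below, 19 in each direction, were taken as those with the smallest p or the widest difference among bins without overlap, so their separation is given as a description and none passed the adjusted test. For these bins the 95% Wilson interval of a single rat extended a median of 3.90 points to either side, at most 12.9.

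The smallest p of any bin came from 2 adjacent bins at rn5 chr3:129677501-129678500, 5054 and 4554 bp after the start of Lzts3, which encodes a scaffold protein of excitatory synapses. In the larger bin, with 21 CpGs and 1806 to 2561 reads per rat, HS_SCR had 35.3%, 37.3%, 33.9% and 37.5% and 0.4% salt had 24.6%, 27.8%, 28.3% and 26.2%. The neighbouring bin of 3 CpGs had 31.5%, 33.1%, 30.2% and 27.4% against 17.8%, 16.5%, 18.2% and 18.9%. All 24 CpGs, which span 308 bp, had a higher mean in HS_SCR, by 0.213 to 21.6 points, and at 9 of them the groups did not overlap. Over all tested sites 2.52% did not overlap. The bins were chosen for their separation, and neighbouring CpGs can lie on the same reads. These are therefore not 24 separate observations. Bin differences were 9.29 (SE 1.21) and 12.7 points (SE 1.32), each with an adjusted p of 0.772. HS_DT, whose comparison with the same 0.4% salt rats shares these controls, had means of 30.02% and 28.5%.

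Of the 38 named bins, 3 lay within 5000 bp of a placed gene start, and 3 of the others that were higher are given by their nearest placed gene. Starts were placed for 7935 of 27457 genes, so here and below a gene without a placed start may lie closer. A bin at rn5 chr20:51188001-51188500, 70011 bp upstream of Prdm1, the repressor that drives terminal differentiation of B cells, had 15.1%, 14.7%, 19.2% and 20.2% against 10.1%, 9.26%, 7.13% and 10.8%. A bin 1391 bp after the start of Ppp1r18, an actin-associated partner of protein phosphatase 1, had 16.9%, 19.6%, 25.3% and 24.7% against 7.77%, 14.1%, 2.22% and 5.22%. Upstream of Polrmt, the RNA polymerase of mitochondria, a bin at 2891 bp had 39.2%, 33.9%, 40.7% and 32.0% against 22.9%, 22.8%, 28.1% and 26.8%. In each of these bins the lowest HS_SCR rat stood above the highest 0.4% salt rat. A bin 8530 bp upstream of Unc13a, a synaptic vesicle priming factor, had a mean of 42.0% against 30.8%, and one 21972 bp after the start of Gse1 had 63.7% against 51.8%, where HS_SCR replicate 4, at 57.4%, nearly met the highest 0.4% salt rat at 57.1%. The Gse1 difference of 11.8 points was 6.12 at sites with at least 20 reads. HS_DT had means of 13.03% near Prdm1, 15.9% near Ppp1r18, 27.9% near Polrmt, 44.3% near Unc13a and 57.9% near Gse1. Of the named bins, the widest difference upward was at rn5 chr3:172159001-172159500, with 42.9%, 34.6%, 45.3% and 21.3% against 11.2%, 19.9%, 11.1% and 15.3% over 4 CpGs. That is 21.7 points (SE 5.80), and its lowest HS_SCR rat, replicate 4, stood just above the highest 0.4% salt rat. The HS_DT mean there was 37.2%.

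Among the named bins lower in HS_SCR, the widest difference was at rn5 chr10:104275501-104276000, far from any placed start, with 42.0%, 42.1%, 33.1% and 40.3% in HS_SCR against 58.3%, 57.0%, 56.2% and 64.8% over 7 CpGs. The groups were well apart, by -19.7 points between means (SE 2.89; adjusted p = 0.772), and the HS_DT mean was 40.4%. A bin of 15 CpGs 34423 bp after the start of Egln2, a prolyl hydroxylase that marks hypoxia-inducible factors for destruction, had 68.9%, 69.2%, 66.3% and 68.1% against 77.3%, 75.8%, 73.5% and 77.0%, with an HS_DT mean of 68.4%. On the X chromosome a bin of 25 CpGs, 57416 bp upstream of the corepressor gene Bcor, had 8.47%, 8.82%, 6.09% and 10.2% against 17.8%, 13.3%, 14.9% and 17.7%. Its difference was -7.55 points (SE 1.39), and HS_DT had a mean of 12.4%. A bin 24625 bp upstream of Ptprg, a receptor tyrosine phosphatase, had 42.6% against 51.0%, with 48.5% in HS_DT. Bins near Adra1d, the alpha-1D adrenergic receptor (42956 bp), and Hspa12b, a member of the HSP70 family (52114 bp), had 37.9% against 50.1% and 36.9% against 48.0%, with 37.1% and 43.9% in HS_DT.

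Some named bins lay far from any placed start. In a bin at rn5 chr6:6444501-6445000 both groups were tight, with 21.6%, 20.3%, 22.9% and 20.4% in HS_SCR and 14.8%, 14.6%, 14.0% and 14.8% at 0.4% salt, and the HS_DT mean was 16.6%. A bin of 12 CpGs at rn5 chr3:83694501-83695000 was the most deeply read of those higher, with 5046 to 9396 reads per rat, and had 60.4%, 58.4%, 60.8% and 59.7% against 54.4%, 56.1%, 55.4% and 54.5%. Its difference was 4.73 points (SE 0.672), and HS_DT had a mean of 55.7%. In a bin at rn5 chr11:93514501-93515000 HS_SCR itself was split, with 53.6% and 55.2% in replicates 1 and 2 and 30.7% and 33.0% in replicates 3 and 4, against 55.5%, 58.7%, 60.4% and 58.5%. There the difference of -15.2 points (SE 6.62) was -26.4 with animals 858 to 871 alone, which leaves replicates 3 and 4 (animals 871 and 870), and HS_DT had a mean of 56.4%. A bin of 15 CpGs on the X chromosome, at rn5 chrX:72692501-72693000, had 19.3%, 21.5%, 17.8% and 19.8% against 30.1%, 26.2%, 24.9% and 24.9%, and HS_DT had a mean of 19.3%. The HS_DT mean lay on the HS_SCR side of the 0.4% salt mean in 37 of the 38 named bins; both comparisons share the 0.4% salt rats, whose levels entered the choice of these bins.

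Some of the lower bins had counts that equalled those of another place. The bin of smallest p, at rn5 chr8:23722501-23723000, had 27.4%, 26.9%, 25.7% and 26.0% against 32.5%, 34.0%, 34.2% and 36.3%, but all 7 of its CpGs had the same counts as positions in a bin farther along chromosome 8. On chromosome 1, 2 bins 107000 bp apart, the first 80381 bp upstream of the zinc finger gene Zfp84, had means of 28.9% against 44.1% and 30.4% against 44.2%. All 26 and 33 of their CpGs had counts equal to another position, and the levels of the 2 bins differed by at most 2.05 points in any rat. At rn5 chr3:168420501-168421500, 14 CpGs formed 7 pairs at a fixed distance of 359 bp, and in 5 of these pairs the levels were within 2 points in all 8 rats. The 2 bins there had 19.7% against 30.6% and 31.4% against 40.1%, and they are therefore not separate measurements. In 35 of the 38 named bins, those 2 of chromosome 3 among them, there was no CpG with counts equal to a position more than 1000 bp away.

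**Figure D4:**
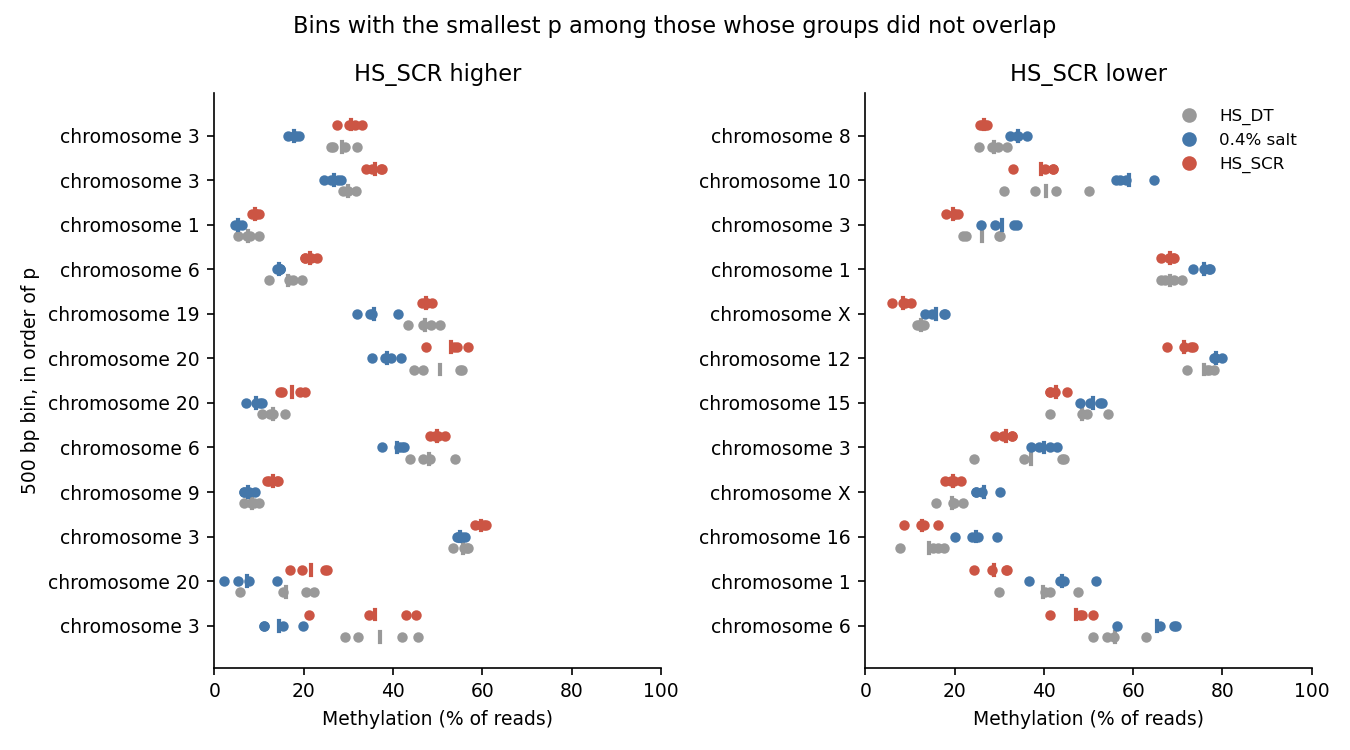
Methylation in percent of reads of each rat in the 12 bins with the smallest p in each direction among bins whose HS_SCR and 0.4% salt rats did not overlap, labelled by chromosome; ticks are group means. The upper bin of the left panel lies at 27.4% to 33.1% in HS_SCR and 16.5% to 18.9% at 0.4% salt.

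At single CpGs, 526526 common sites were tested and none was called (0% of 526526; smallest adjusted p = 0.192), with 28637 (5.44%) at an unadjusted p under 0.05. The groups did not overlap at 13264 sites (2.52%), 6494 higher and 6770 lower, and limma called none (23894 unadjusted). A CpG at position 7898267 of chromosome 4, 537 bp after the start of Pus7, a pseudouridine synthase, had 4.00%, 7.89%, 13.2% and 13.1% in HS_SCR. In the 0.4% salt rats it had no methylated read among 52 to 127 reads, which allows levels of up to 2.36% to 5.77% at 3 reads, and among the HS_DT rats 2 had none. At position 732165 of chromosome 7, HS_SCR had 75%, 72.0%, 75% and 72.1% against 95.8%, 93.1%, 94.9% and 100%, and here HS_DT, from 89.3% to 94.4%, lay near the 0.4% salt rats. Position 109881681 of chromosome 2 had 71.0%, 91.1%, 55.1% and 37.2% in HS_SCR against 94.2% to 97.5%, with HS_DT at 97.7% to 100%. A pair of positions on chromosome 3, 169223090 and 169621238, had identical counts and count as 1 result, with 49.4% against 18.8%. At position 180433834 of chromosome 3, 1999 bp after the start of Fndc11, all of the 30 to 50 reads of each 0.4% salt rat were methylated, and HS_SCR had 82.1%, 91.7%, 70% and 81.0%. The adjusted p of each of these sites was 0.666.

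Rats of other groups gave a second look at the same bins. In the study's first table, MCW SS rats fed 4% NaCl for 14 days from 6 weeks of age without a GapmeR (n = 4) are set against MCW SS rats kept on 0.4% NaCl to 8 weeks of age (n = 3). SS rats of the CRL colony were fed the same high-salt diet over the same days (n = 4) or a non-purified diet with 0.75% NaCl to 8 weeks of age (n = 4). Of the 38 named bins, 15 were covered there. In the MCW rats the high-salt mean was on the same side as in HS_SCR in 12 of 15, where the share over the 26457 bins tested in both tables was 51%. In the CRL rats it was so in 6 of 15, with 50.7% over 26332 bins. With the linked bins of chromosome 1 counted once, and likewise those of chromosome 3, the counts were 11 of 13 and 6 of 13. None of the 15 was without overlap in either colony (background 6.1% in MCW and 3.07% in CRL), and the smallest adjusted p was 0.862 and 0.786. Of the 15, the bin near Prdm1 had the widest difference in MCW, over 3 CpGs. It stood at 23.1% ± 13.8 (SD, n = 4) on high salt and 13.7% ± 4.26 (SD, n = 3) on low salt. In CRL it had 21.4% and 23.4%. The widest in CRL was at rn5 chr6:6444501-6445000, with 30.2% on high salt and 52.5% on low salt, opposite to HS_SCR. There MCW had 27.9% and 21.7%. The bin near Ptprg had 46.9% and 49.6% in MCW and 56.9% and 59.2% in CRL.

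The distance of each rat from the HS_DT mean, averaged over bins, did not separate the groups. It was 3.34, 3.07, 3.59 and 3.47 points in HS_SCR and 3.37, 3.29, 2.93 and 3.28 points at 0.4% salt, so the rats of the groups were interleaved. The difference was 0.147 points (SE 0.148; exact two-sided permutation test, p = 0.371), and it was 0.0512 without 0.4% salt replicate 3, 0.0733 without HS_SCR replicate 3 and 0.246 without HS_SCR replicate 2.

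The mean methylation of some 2 Mb windows varied more between rats than between groups. Of 1228 windows of 2 Mb, the 4 with the widest spread over the 12 rats lay on chromosomes 14, 5, 1 and 6, and they were picked after their values had been seen. In the window of chromosome 14 (rn5 chr14:46000001-48000000) HS_SCR had 23.5%, 22.6%, 13.7% and 16.5% and 0.4% salt had 16.6%, 16.1%, 14.4% and 18.7%. HS_SCR replicates 1 and 2 were the highest of all 12 rats there and replicate 3 the lowest, and the same order held in the windows of chromosomes 5, 1 and 6. On chromosome 6 replicate 3 was lowest by a narrow margin, 24.14% against 24.18% in 0.4% salt replicate 3. The levels of a rat were close in the windows of chromosomes 14, 5 and 1: on chromosomes 5 and 1, HS_SCR replicate 1 had 24.7% and 23.7% and replicate 3 had 15.6% and 14.6%. The windows may therefore not be separate measurements, which was not tested. The SD over the 12 rats was 3.15 points, against a median of 0.293 over all windows. The median number of reads per site was 2573, 2280, 2658 and 252 in the 4 windows and 82 over all common sites, and 46.9%, 36.3%, 37.5% and 24.4% of their sites had counts equal to another position. Without its window the difference on chromosome 14 was 0.0022 in place of 0.246 points, and without all 4 windows the difference over common sites was -0.0084 points. HS_SCR replicates 1 and 2 carry the animal numbers 784 and 785, and HS_DT replicate 4, the next highest rat at 22.0%, is 783. The other rats of HS_SCR and 0.4% salt are numbered from 858 to 871, and HS_DT replicates 1 and 2, numbered 781 and 782, had 17.8% and 16.7%. The part of animal number in these values was not tested.

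**Figure D5:**
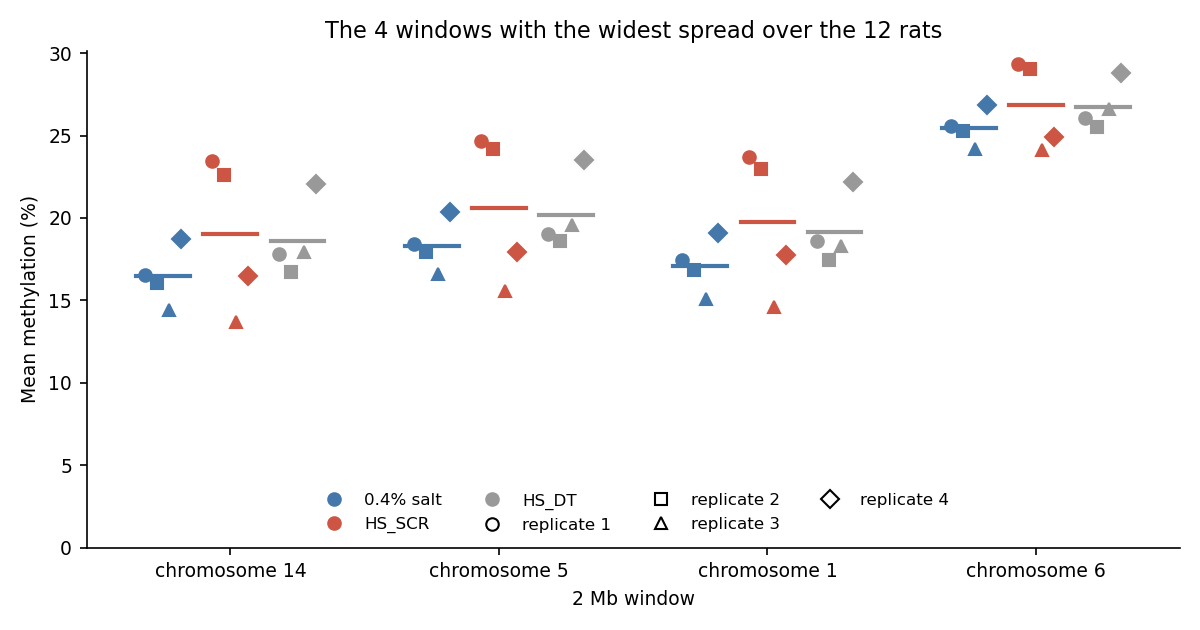
Mean methylation of each of the 12 rats in the 4 windows of 2 Mb with the widest spread, labelled by chromosome; bars are group means and symbols mark replicates. HS_SCR replicates 1 and 2 lie at 22.6% to 29.4% and replicate 3 at 13.7% to 24.1%.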

How the data were processed

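Per the file headers, the deposited table gives whole-number counts of C and T reads at each CpG position in each library, and an empty entry was read as no reads. Trimming with Trim Galore 0.2.5 and the build rn5 are named in the submitters' processing notes; an aligner or a methylation caller was not given in the sources used here. Per the labels' protocols, libraries followed a published multiplexed protocol. Levels were computed at sites with at least 10 reads in all 12 libraries. Counts were summed over bins of 500 bp with at least 3 such sites, single sites and promoter windows, each between 5 and 95% pooled. They were fitted by quasi-binomial logistic regression in numpy 2.4.6, with the dispersion moderated by limma 3.58.1 and held at 1 or more, a two-sided F test and Benjamini-Hochberg adjustment over all features tested, with calls at an adjusted p below 0.05. The code was tested on simulated data. Rat means were compared by exact two-sided permutation tests. Alternatives included limma on log ratios, edgeR 4.0.16, 20 reads, other bin sizes, a replicate block and leaving out each rat.

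Promoter windows were placed on rn5 by CpG spacing, with at least 10 covered positions, all on CpGs of the sequence; 99.2% of 8764 single placements fell on the chromosome RefSeq names, and 8696 were kept. No genome or annotation of rn5 was used here, so positions are given by the nearest placed start, and exons and introns were not assigned. Named bins were up to 12 per direction with the smallest p and up to 8 with the widest difference (at least 5 sites and 200 reads in every rat) among those without overlap, counted once where levels lay within 2 points in all rats. Named sites were the 3 per direction and named promoters up to 8 per direction with the smallest p without overlap, plus the members of each gene list with the smallest p and Dnmt3a and Tet3. The members, lists and rules were chosen with earlier results of these data known.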

Additional observations from a re-analysis of the deposited data

Results flagged for a closer look

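A rat standing far from the other 3 of its group was looked for in 142 groups of 4 values, and 9 were found by Dixon's ratio at its 95% critical value. Chance flags about 1 in 20 of unselected groups. Many of these groups were bins and promoter windows chosen for separation, so that rate need not hold here. At sites below 10% methylation, 0.4% salt replicate 2 had 0.804%, below the 0.883% to 0.887% of the other rats of its group. HS_SCR replicate 4 had 57.4% in the bin at 64855501 of chromosome 19 near Gse1, and HS_SCR replicate 1 had 84.3% in the bin at 88450501 of chromosome 13. At 0.4% salt, replicate 2 had 68.4% in the bin at 38076001 of chromosome 9 and replicate 4 had 55.0% in the bin at 130116001 of chromosome 3 near Hspa12b. HS_SCR replicate 3 had 12.98% in the promoter of Nalf2 and 17.7% in that of LOC102548326. In the Tet3 window with 2 common sites, HS_SCR replicate 1 had 0.741% (2 of 270 counts) and 0.4% salt replicate 3 had 0.794% (2 of 252 counts). The other rats of both groups had no methylated read there, and in such a group any other value is flagged.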

How the results depend on the processing

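No bin and no promoter window was called under any alternative that was run. Of single sites, where none was called, 2 were called with a replicate block, 3 among animals numbered 858 to 871 alone, 1 with the range of animal numbers as a covariate, and between 0 and 6 without 1 rat (6 without HS_SCR replicate 4 and 6 without 0.4% salt replicate 3, 1 without HS_SCR replicate 2); the cause was not tested. Replicate numbers did not pair the rats, with correlations of same-numbered rats from -0.0124 to 0.0236. The difference of mean levels, 0.0131 points, was -0.158 among animals 858 to 871, -0.0084 without the 4 windows of widest spread, and -0.0670 to 0.186 without 1 rat, negative without 0.4% salt replicate 2 (-0.0272) or HS_SCR replicates 1 (-0.0670), 2 (-0.0208) or 3 (-0.0453). Without HS_SCR replicate 4 the sign turned at sites of 30 to 70% (0.337), 70 to 90% (0.128) and over 90% (0.0741), where leaving out HS_SCR replicate 1 gave -0.355, -0.652 and -0.209, and weighting by reads turned it at 30 to 70% (0.202). The sign also turned in the promoters of Ndn (-0.103 without 0.4% salt replicate 4, -1.18 without HS_SCR replicate 1, at most 2.62), Gnas (0.765 without 0.4% salt replicate 2, 2.74 without HS_SCR replicate 4, at least -1.62) and Plvap (-0.965 without 0.4% salt replicate 1, -0.344 without HS_SCR replicate 3, at most 3.87). The 38 named bins had been chosen for separation, so their direction without 1 rat is fixed by that choice; 34 kept 3 sites at 20 reads. A pooled level below 5% kept 6666 of 7089 promoter windows from being tested, and the windows of 2000 bp either side of a start and the analyses of 2 Mb windows were chosen after seeing the data.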
